A study of Homo sapiens with 21 samples.

Results

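Diethylstilbestrol (DES) was compared with no treatment in MDA-MB-453 cells, an established human breast cancer line of luminal type that lacks estrogen receptor alpha. The comparison took 3 libraries of cells given 10 µM DES for 24 h and 3 libraries of cells labelled as untreated, and its members were the genes with a mean of at least 0.5 FPKM (fragments per kilobase of gene, scaled to the depth of the library) over these 6 libraries, which were 14804 of the 58735 genes in the table. The 6 belong to a series of 21 libraries in 7 groups of 3, which also holds calcium (10 mM), cadmium (10 µM), the agonist GSK4716 (5 µM), and DES given 3 h before calcium or before cadmium. In that study DES served as the antagonist of the estrogen-related receptor ESRRB, and the DES-alone libraries show what the compound did to these cells with no metal present. DES was dissolved in ethanol, and the control is labelled as having no treatment, so DES and its vehicle cannot be told apart here. All cells were moved from serum to charcoal-stripped serum before treatment. Calcium and GSK4716 were then given without serum and cadmium in 1% charcoal-stripped serum, and which of these media the DES-alone and control wells had is not given in the sources used here. The labels do not say that the 3 libraries of a group came from separate cultures, so the p-values below measure the spread between these libraries, which may be technical.

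DES is a synthetic nonsteroidal estrogen that binds the estrogen receptors and, as an antagonist, the estrogen-related receptors, a family of orphan nuclear receptors that drive genes of mitochondrial respiration and, for ESRRB, of pluripotency. Cells that meet misfolded protein turn on the heat shock response, in which heat shock factor HSF1 binds heat shock elements in the promoters of chaperone genes. A separate pathway, the integrated stress response, phosphorylates the translation factor eIF2 alpha, which lowers protein synthesis while the transcription factor ATF4 is made and turns on genes of amino acid supply and stress signalling.

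The libraries held 15246217 to 28424805 fragments on genes. DES replicate 3 stood apart from the other 5, with 35112 genes holding at least 1 fragment against 20363 to 24055, and a count of a gene list is also given without single libraries, this one or another, where that moved it by over 1.5 times. The labelled cell type was checked against its markers: FOXA1, GATA3, SPDEF, XBP1, TFAP2B, ERBB2, EPCAM, KRT8, KRT18 and KRT19 were present in every library, at 15.2 FPKM (TFAP2B in a DES library) or more, while KRT5, KRT14 and TP63 of basal cells stayed at or below 0.46 FPKM and ESR1 and PGR at or below 0.149 FPKM. LYZ was at 0 in all 6, PTPRC, CD3E, PECAM1, VWF, VIM, COL1A2 and PDGFRB were at or below 0.218 FPKM, and COL1A1 was an exception at 10.5 to 12.01 FPKM in control and 12.5 to 32.7 FPKM with DES.

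DES moved a large part of the transcriptome. The limma test on log2(FPKM + 0.1), at an adjusted p of 0.05, called 2643 genes higher and 1909 genes lower in the DES libraries, which was 17.9% and 12.9% of the genes tested. These shares are the background against which each gene group below is read. The groups of libraries did not overlap for 4539 of the 4552 called genes, and 2871 of them also changed by at least 1 on the log2 scale. The count rested on the replicates: it was 2183 without control replicate 1, 2412 without control replicate 2 and 2633 without DES replicate 2, against 4474 without DES replicate 3. The balance of higher and lower also rested on the scaling. FPKM as deposited put the median gene 0.08 above control on the log2 scale, while rescaling to equal totals of fragments put it at -0.09 and gave 2004 higher and 2528 lower, and limma-voom on the recovered fragments gave 1891 higher and 2905 lower. Small shifts of whole gene groups are therefore read against these medians. Fewer cells of a type and less RNA per cell cannot be told apart in such bulk libraries.

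The filter admitted genes through either group: 1326 tested genes were under 0.5 FPKM on average in control and 656 with DES. Of these, 669 were called higher and 246 lower, respectively. When both groups had to pass, 12822 genes were tested and 3479 called, 1893 higher and 1586 lower.

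**Figure D1:**
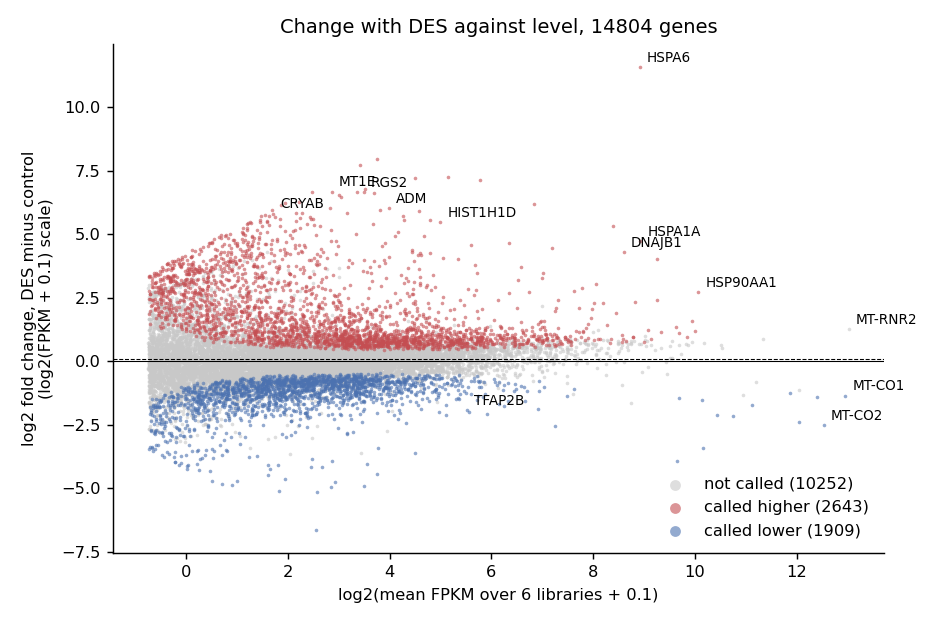
Each point is a gene, with the log2 of its mean FPKM over the 6 libraries plus 0.1 on the x axis and its log2 fold change, DES minus control, on the y axis. Red genes were called higher (2643) and blue genes lower (1909), the dashed line is the median of all genes (0.08), and HSPA6 lies far above all others at 11.57.

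The heat shock genes rose as a group. Of 29 measured genes of the heat shock response, 24 were higher and 0 lower with DES, with a median log2 fold change of 1.60 beside 0.08 over all genes tested, and 23 were higher without DES replicate 3. HSPA6, RGS2 and CRYAB passed the filter only through the DES libraries. When both groups had to pass, 21 of 25 genes were higher and 0 lower (median 1.6). HSPA6, an HSP70 chaperone that most cells make only under proteotoxic stress (chromosome 1, 161524540 to 161526910, plus strand, GRCh38), had 0.248, 0.260 and 0.128 FPKM in the control libraries and 1262, 993 and 644 FPKM with DES. It was close to absent in every control library and abundant in every DES library. Its log2 fold change was 11.57 (SE 0.29, adjusted p = 8.2e-06), the largest among all genes tested. The stress-inducible HSP70 pair HSPA1A and HSPA1B followed. HSPA1A rose from 29.2, 34.4 and 44.1 FPKM to 993, 858 and 956 FPKM, and HSPA1B from 13.5, 18.2 and 17.5 FPKM to 761, 628 and 580 FPKM. These 2 genes are near-identical neighbours on chromosome 6, so fragments cannot be assigned between them with certainty, and both moved the same way (log2 fold changes 4.72 and 5.32).

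The cochaperones and small heat shock proteins rose beside them. DNAJB1, the J-domain partner that loads clients onto HSP70, was at 35.0, 36.4 and 36.5 FPKM in control and 1019, 759 and 447 FPKM with DES (log2 fold change 4.28, SE 0.30, adjusted p = 0.000256). HSPB1, the small heat shock protein HSP27, was at 59.5, 55.7 and 100 FPKM in control and 1473, 1226 and 766 FPKM with DES (4.01 on the log2 scale, adjusted p = 0.000472). In both genes DES replicate 3 was the lowest of the DES libraries and still above every control library. HSP90AA1, the stress-inducible HSP90, rose by 2.71 on the log2 scale, from 263, 348 and 235 FPKM to 1335, 2119 and 2149 FPKM. SERPINH1, the collagen chaperone HSP47, rose by 3.48, and BAG3, which hands HSP70 clients to autophagy, by 2.71. HSPA8, the constitutive HSP70, was already abundant at 295, 360 and 310 FPKM and rose to 856, 679 and 751 FPKM (1.24 on the log2 scale). CRYAB, the small chaperone alpha-B crystallin, had 2, 0 and 1 fragments in the control libraries and 5.57, 5.95 and 7.38 FPKM with DES, so the size of its change depends on the value added before taking logs. RGS2, a regulator of G protein signalling that the stress response also induces, went from 0.103, 0.316 and 0.0289 FPKM to 20.9, 21.2 and 24.4 FPKM. HSF1 itself rose by 0.60 (adjusted p = 0.0328), a call lost without control replicate 1, control replicate 2 or DES replicate 2. The HSF1 call was also lost under each other scaling of FPKM tried, with limma-voom, with the replicate number as a block and with no filter. Together 8 chaperone genes (HSPA6, HSPA1A, HSPA1B, HSPA8, HSP90AA1, DNAJB1, HSPH1 and HSPB1) took 0.361% to 0.474% of all fragments in control and 2.30% to 2.79% with DES. HSPA1A, DNAJB1, HSPB1, HSPA8, SERPINH1 and BAG3 are shown outside the naming rule, chosen after their values were seen.

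**Figure D2:**
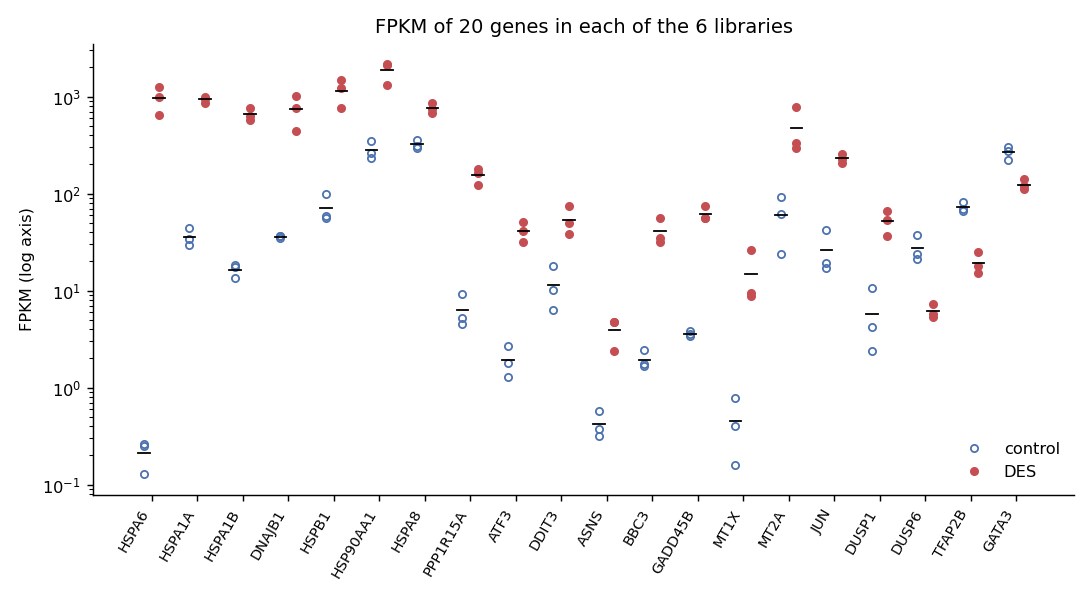
FPKM on a log axis for 20 genes in each of the 6 libraries, with open blue circles for control, filled red circles for DES and a black line at each group mean. HSPA6 runs from 0.128 FPKM in a control library to 1262 FPKM in a DES library, and TFAP2B, GATA3 and DUSP6 are the genes shown that lie lower with DES.

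Heat shock elements were looked for in RefSeq promoter windows (GRCh38.p14, 250 bases before to 50 after the start site), spelled as 3 alternating units, GAANNTTCNNGAA or TTCNNGAANNTTC, on both strands. A match lay in 0.487% of 27305 promoters, in 0.275% of the 9087 tested genes with a window, in 0.733% of 1364 genes called higher (10 genes) and in 0.0792% of 1262 called lower (1 gene, RBM23). The 10 were HSPA6, SERPINH1, CHORDC1, HSPA8, DNAJA1, DNAJB6, GAS5, HNRNPA2B1, MED19 and TDRG1, of which the heat shock list holds 5. The calls of CHORDC1, HNRNPA2B1, MED19, TDRG1 and RBM23 were each lost without control replicate 1 and also without control replicate 3. Of the 25 heat shock genes with a window, 5 had a match. Stretches of the 4 windows of heat shock genes with a match before the start site are shown to let the elements be seen, with the matched letters in capitals.
HSPA6 (chr1:161524451-161524493, plus strand): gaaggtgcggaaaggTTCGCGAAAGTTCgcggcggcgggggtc
SERPINH1 (chr11:75562162-75562204, plus strand): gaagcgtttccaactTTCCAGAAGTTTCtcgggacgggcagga
CHORDC1 (chr11:90223072-90223124, minus strand): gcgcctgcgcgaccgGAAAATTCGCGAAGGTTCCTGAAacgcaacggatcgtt
HSPA8 (chr11:123062164-123062381, minus strand): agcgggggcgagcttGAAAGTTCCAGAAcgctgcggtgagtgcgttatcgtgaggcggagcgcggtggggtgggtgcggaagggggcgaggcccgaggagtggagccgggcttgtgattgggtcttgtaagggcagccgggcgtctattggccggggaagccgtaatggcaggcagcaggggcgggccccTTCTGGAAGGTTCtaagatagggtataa
The HSPA6 match began 74 bases before the start site and the SERPINH1 match 76 bases before it. In CHORDC1, an HSP90 cochaperone that rose by 2.02 on the log2 scale, 3 matches overlapped and ran together as 1 longer array. HSPA8 had 1 match far from the start and 1 near it. Windows of other strong risers in the list, such as HSPA1A, DNAJB1 and HSPB1, held no match to these letters, which says only that this spelling is not in the window.

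Genes of the integrated stress response changed in part. Of 38 measured genes 12 were higher and 1 lower, with a median of 0.17 beside 0.08 over all genes. By role, 4 of 7 transcription factors, 4 of 11 signalling genes and 4 of 12 amino acid genes were higher, and 0 of 8 tRNA synthetases. PPP1R15A, the regulatory subunit GADD34 that restores translation, was at 4.56, 5.22 and 9.31 FPKM in control and 180, 163 and 124 FPKM with DES (log2 fold change 4.64, SE 0.29, adjusted p = 0.000182). ATF3, a stress-induced repressor, was at 1.78, 1.30 and 2.67 FPKM in control and 31.8, 41.2 and 50.4 FPKM with DES (4.39, SE 0.29, adjusted p = 0.000206). DDIT3, the factor CHOP, went from 10.2, 6.34 and 17.9 FPKM to 38.4, 74.6 and 49.3 FPKM (2.30). All 3 DES libraries lay above all 3 control libraries in each of these genes. Among the amino acid genes, asparagine synthetase ASNS rose by 2.92 and the transporter chain SLC3A2 by 2.87, while the arginine transporter SLC7A1 fell by 1.19 on the log2 scale. ATF4 mRNA rose by 0.93 (adjusted p = 0.0205), and GDF15, a secreted stress cytokine, by 2.40, with control replicate 3 at 139 FPKM against 29.4 and 25.8 FPKM in the other control libraries. Both calls were lost without control replicate 1, control replicate 2 or DES replicate 2. The ATF4 call was also lost under quantile normalization, with the replicate number as a block, with all 7 groups in one fit and with no filter. With limma-voom the list gave 10 higher and 6 lower, and without DES replicate 2 it gave 6 higher and 1 lower, as it did without control replicate 1 or control replicate 2. The lower genes were 4 without DES replicate 1 and 2 without DES replicate 3. Rescaling to equal totals of fragments gave 10 higher and 5 lower with a median of -0.00496, and quantile normalization 9 and 5 with 0.05.

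The CARE element bound by ATF4, TGATGNAA, was matched in 3.67% of all promoters and in 1.51% of tested genes, 2.05% of genes called higher and 1.58% of genes called lower. In the list, 5 of 24 genes with a window had it, ATF3, ASNS, SLC3A2, CHAC1 and SLC7A1, and the first 4 of these were higher with DES. The 3 stretches with a match before the start site are shown for the same reason as above.
ASNS (chr7:97872454-97872491, minus strand): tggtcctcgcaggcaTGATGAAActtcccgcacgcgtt
ATF3 (chr1:212565201-212565238, plus strand): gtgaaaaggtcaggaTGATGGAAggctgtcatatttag
CHAC1 (chr15:40953247-40953284, plus strand): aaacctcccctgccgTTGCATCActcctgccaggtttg
The CHAC1 match lies on the opposite strand. CHAC1, which degrades glutathione, was at 7.49, 4.37 and 13.3 FPKM in control and 16.6, 30.2 and 45.3 FPKM with DES. Its log2 fold change was 1.89 (adjusted p = 0.0227), and it was not called without control replicate 1, control replicate 2, DES replicate 2 or DES replicate 3.

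Few genes of the unfolded protein response of the endoplasmic reticulum changed. Of 25 genes 3 were higher and 2 lower, with a median of 0.31, and 7 were higher without DES replicate 3. HSPA5, the reticulum HSP70 called BiP, went from 133, 120 and 123 FPKM to 313, 446 and 294 FPKM (1.46), and DNAJB9 and the sensor ERN1 rose by 1.40 and 1.69. The degradation factors SEL1L and EDEM1 fell by 1.14 and 0.96 on the log2 scale, and without control replicate 1 neither was called. EDEM1 was also lost without control replicate 3 or DES replicate 2. Of 28 NRF2 antioxidant genes, 1 was called higher, CHAC1, and 0 lower, and the median was 0.25. That count was 5 higher without control replicate 3, 0 higher without control replicate 1, control replicate 2 or DES replicate 2, and 1 gene was lower without DES replicate 1. Under quantile normalization the medians of the unfolded protein response and NRF2 lists turned to -0.10 and -0.19, beside -0.09 over all genes, with 3 and 1 lower, and with equal totals 4 and 2 were lower. The proteasome list had 8 of 31 genes higher and 0 lower, led by PSMA6 (1.96) and PSMC5 (0.98), and a median of 0.55 that dropped to 0.12 under quantile normalization, with 3 higher and 3 lower. Median-ratio scaling gave 4 higher. Its count was 15 without DES replicate 3, 7 (with 2 lower) without DES replicate 1, 4 without control replicate 3 and 3 without control replicate 1, control replicate 2 or DES replicate 2.

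Metallothioneins, small cysteine-rich proteins that bind zinc and cadmium, rose although these cells had received no metal. Of 7 measured genes of the metallothionein and zinc list 5 were higher and 1 lower, with a median of 2.62. MT1E had 0.118, 0 and 0 FPKM in control and 10.0, 9.90 and 23.0 FPKM with DES. MT1X went from 0.401, 0.160 and 0.785 FPKM to 9.52, 8.73 and 26.1 FPKM. MT2A, the most abundant of them, went from 62.0, 24.1 and 92.7 FPKM to 297, 336 and 792 FPKM. In each of these genes DES replicate 3 was the highest library, and without it the list kept its counts of 5 higher and 1 lower. The zinc exporter SLC30A1 rose by 2.13 and the sensor MTF1, which switches these genes on, fell by 0.74 on the log2 scale, a call lost when any control library was left out. The list had 0 lower without control replicate 1 or control replicate 2. MT1E and MT1X passed the filter only through the DES libraries, and when both groups had to pass, 3 of 5 genes were higher and 1 lower (median 2.13). MT1E and its relatives are near-copies of each other, so shared fragments are uncertain.

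Some growth arrest and early response genes were also higher after 24 h. All 3 GADD45 genes, which are induced by DNA damage and other stress, rose: GADD45G from 1.94, 2.01 and 4.62 FPKM to 50.7, 50.04 and 56.9 FPKM, GADD45B by 4.07 and GADD45A by 2.80 on the log2 scale. In the list of CDK inhibitors, p53 targets and GADD45 genes 6 of 18 were higher and 0 lower, the others being CDKN1C, CDKN2A and CDKN2D (median 0.48). By role that was 3 of 3 GADD45 genes, 3 of 7 CDK inhibitors and 0 of 8 p53 targets. Without control replicate 1 or control replicate 3 the list had 3 higher, as it had with limma-voom, and 1 was lower without DES replicate 1. CDKN1C was not called without any single control library, CDKN2D lost its call without any single library, and CDKN2A kept its call only when control replicate 2 was the library left out. Of 19 AP-1 and immediate early genes 10 were higher and 2 lower (median 1.43). When both groups had to pass the filter, which FOS did not, 9 of 17 were higher and 2 lower (median 0.99), and the median was 0.88 with 1 FPKM added before taking logs and 0.94 under quantile normalization. FOS was at 0.392, 0.512 and 0.355 FPKM in control and 19.9, 9.32 and 4.47 FPKM with DES. JUN was at 16.97, 19.1 and 41.7 FPKM in control and 254, 230 and 209 FPKM with DES (3.26, SE 0.33, adjusted p = 0.00106). The 2 lower genes were IER3 (fell by 1.67) and IER2 (fell by 0.92), which was not called without DES replicate 2.

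Feedback inhibitors of MAP kinases went in both directions. Of 17 genes, 5 were higher and 6 lower (median -0.60). The 9 DUSP phosphatases had 4 higher and 3 lower, and the 5 Sprouty and SPRED genes 1 higher and 3 lower. DUSP1, DUSP10 and DUSP8, phosphatases that act mainly on the stress kinases p38 and JNK, rose by 3.39, 3.14 and 2.98, and DUSP2 by 1.66. DUSP6, the phosphatase specific for ERK, fell from 21.4, 37.8 and 23.6 FPKM to 7.36, 5.41 and 5.80 FPKM (log2 fold change -2.11, SE 0.25, adjusted p = 0.00178), and DUSP5 (not called without control replicate 1) and DUSP7 fell by 0.81 and 1.16. SPRY4, SPRED1 and SPRED2, which dampen ERK signalling, fell by 1.16, 1.39 and 1.19, and SPRY2 rose by 1.09, a call lost when any library but DES replicate 1 was left out.

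Among measured genes of cell death 3 of 7 BH3-only factors and 2 of 3 protective BCL2 genes were higher, and 0 of 3 effectors. BBC3, the BH3-only death factor PUMA, was at 1.74, 1.65 and 2.44 FPKM in control and 31.8, 35.2 and 56.2 FPKM with DES (4.31, SE 0.26, adjusted p = 0.000167). PMAIP1, the related factor NOXA, rose by 3.03 but was not called without DES replicate 2. The protective BCL2L1 and MCL1 rose by 0.86 and 0.69, and in all 5 of 18 genes of the BCL2 list were higher and 2 lower, XIAP and TNFRSF10A (median 0.27). The higher genes were 3 without control replicate 1 or control replicate 2 and 2 without DES replicate 2, and the lower ones 0 without control replicate 1 and 1 without control replicate 2 or control replicate 3. MCL1 was not called when any library but DES replicate 1 was left out, BCL2L1 without control replicate 1, control replicate 2 or DES replicate 2, TNFRSF10A without any single control library and XIAP without control replicate 1. Of 29 autophagy and lysosome genes 10 were higher and 0 lower (median 0.45), led by GABARAPL1 (3.55), ATG9B (2.30) and MAP1LC3B (2.09), which form or feed autophagosomes. This count was 4 without control replicate 1, 3 (with 1 lower) without control replicate 2 and 5 without DES replicate 2, and 6 (with 1 lower) with equal totals of fragments. In the hypoxia and glycolysis list 4 of 29 were higher and 1 lower (median 0.26). Its leader, adrenomedullin ADM, a vasodilator peptide, went from 0.364, 0.296 and 0.490 FPKM to 31.5, 26.0 and 36.1 FPKM (6.02, SE 0.22, adjusted p = 3.08e-05), far from the next member, ANKRD37, at 1.19, whose call was lost without control replicate 1 or control replicate 2. ADM passed the filter only through the DES libraries. The glycolysis enzyme ALDOA rose by 0.62 and was called without DES replicate 1 but not when any other library was left out. ALDOA overlaps AC093512.2 on the same strand, so reads of these cannot be assigned with certainty. The higher genes of the list were 1 without control replicate 1, 2 without control replicate 2 or control replicate 3 and 7 without DES replicate 1, and the lower one was lost without control replicate 1, control replicate 2, DES replicate 2 or DES replicate 3. Quantile normalization gave 3 higher and 5 lower, and equal totals 2 and 2. In the interferon response list 4 of 25 were higher and 0 lower, beside 17.9% and 12.9% of all genes tested. By role that was 2 of 5 transcription factors, 2 of 7 antigen genes and 0 of 13 target genes. Among the higher ones were IRF1 (2.77), B2M (1.60) and IRF7 (1.35), and the list median was 0.97 (0.57 with 1 FPKM added before taking logs). IRF7 was not called under quantile normalization, which left 2 of the list higher.

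The mRNA of the receptor that DES was meant to block was close to the detection limit of these libraries. The study reported ESRRB in these cells by immunofluorescence and by quantitative PCR. ESRRB had 0.0261, 0.0878 and 0.0408 FPKM in control and 0, 0 and 0.0814 FPKM with DES, at most 11 fragments in a library, and did not enter the test. ESRRG, another member of the family, had 0.360, 0.464 and 0.255 FPKM in control and 0.126, 0.299 and 0.0996 FPKM with DES and was also below the filter. ESRRA, the abundant member, went from 21.6, 23.3 and 31.2 FPKM to 16.7, 10.4 and 15.9 FPKM (log2 fold change -0.83, SE 0.24, adjusted p = 0.0349), a call lost when any of the control libraries or DES replicate 2 was left out. Of 9 measured genes of the family and its coregulators 0 were higher and 4 lower (median -0.83), among the lower ones the coactivators NCOA2 (fell by 1.37) and NCOA3 (fell by 0.91). Of 27 metabolic targets of these receptors 2 were higher, COX8A and ATP5F1B, and 2 lower, CPT1A and ESRRA (median 0.20). Leaving out any of the control libraries or DES replicate 2 gave 0 higher and 1 lower, and leaving out DES replicate 3 gave 7 higher and 2 lower. The replicate block and quantile normalization also gave 0 higher, with 2 and 3 lower. The ERR element TNAAGGTCA was found in 0.963% of all promoters, in 0.451% of tested genes, in 0.66% of genes called higher and in 0.634% of genes called lower, and in 0 of the 20 metabolic targets with a window.

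Of the 11 genes that the study followed by quantitative PCR, ESRRB among them, 2 passed the filter here. KLF4, a pluripotency factor, had 5.29, 3.95 and 7.53 FPKM in control and 9.19, 12.2 and 11.2 FPKM with DES (0.99, SE 0.25, adjusted p = 0.0251). The groups did not overlap, but the call was lost without control replicate 1, control replicate 2, DES replicate 2 or DES replicate 3. RPLP0, the reference gene of that assay, was at 295, 295 and 326 FPKM in control and 590, 373 and 379 FPKM with DES (0.52, adjusted p = 0.136). SOX2, NANOG, POU5F1, ESR1, SFRP2, PRL, IGF1 and DPT stayed at or below 0.539 FPKM in all 6 libraries, and DPT had 0 fragments in each.

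Some estrogen response genes were called, in both directions, beside 17.9% higher and 12.9% lower over all genes tested. Whether this list differs from those shares was not tested. Of 19 measured genes of the estrogen list 2 were higher and 4 lower (median 0.34): the EGF receptor ligand AREG rose by 2.73 and TFF3 by 1.39, while ABCA3, RET, IGF1R and MYB fell. Of these 4 only ABCA3 kept its call without each of the 6 libraries: the lower genes were 1 without any single control library, DES replicate 1 or DES replicate 2, and RET, IGF1R and MYB lost their calls there, as they did with the replicate block and with no filter. The higher genes were 5 without DES replicate 3 and 1 without control replicate 1, control replicate 2, DES replicate 1 or DES replicate 2, where TFF3 lost its call. The palindromic estrogen response element GGTCANNNTGACC, which shares the letters GGTCA with the ERR element, lay in the window of 1 tested gene, ZNF669.

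Of 11 measured luminal transcription factors 7 were lower and 1 higher. TFAP2B was at 81.8, 68.8 and 67.0 FPKM in control and 24.9, 17.97 and 15.2 FPKM with DES (fell by 1.93, adjusted p = 0.00147). GATA3 went from 278, 225 and 301 FPKM to 140, 121 and 112 FPKM (fell by 1.11), and the pioneer factor FOXA1 from 180, 147 and 179 FPKM to 101, 75.9 and 53.2 FPKM (fell by 1.17, and not called without control replicate 1). In the whole luminal identity list 7 of 28 were lower and 4 higher (median 0.18). The lower genes were 3 without control replicate 1 and 4 without control replicate 2 or DES replicate 2, and the higher genes were 10 without DES replicate 3 and 2 without control replicate 2, DES replicate 1 or DES replicate 2. Under quantile normalization 12 were lower and the median was -0.39. The higher genes were the epithelial factor ELF3 (2.30), E-cadherin CDH1 (2.01), PIP and TFF3. The secreted protein PIP was at 130, 58.0 and 39.1 FPKM in control and 569, 358 and 110 FPKM with DES (2.08), groups that overlapped, and its call was lost under each other scaling of FPKM tried and without control replicate 2, control replicate 3, DES replicate 1 or DES replicate 2. CDH1 is also in the EMT and matrix list, with 3 of 9 higher and 2 lower (median 0.01, below 0 under each other scaling; 1 lower without any library but DES replicate 3), where its repressor SNAI1 rose by 3.53 and the junction protein TJP1 fell by 1.15.

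**Figure D3:**
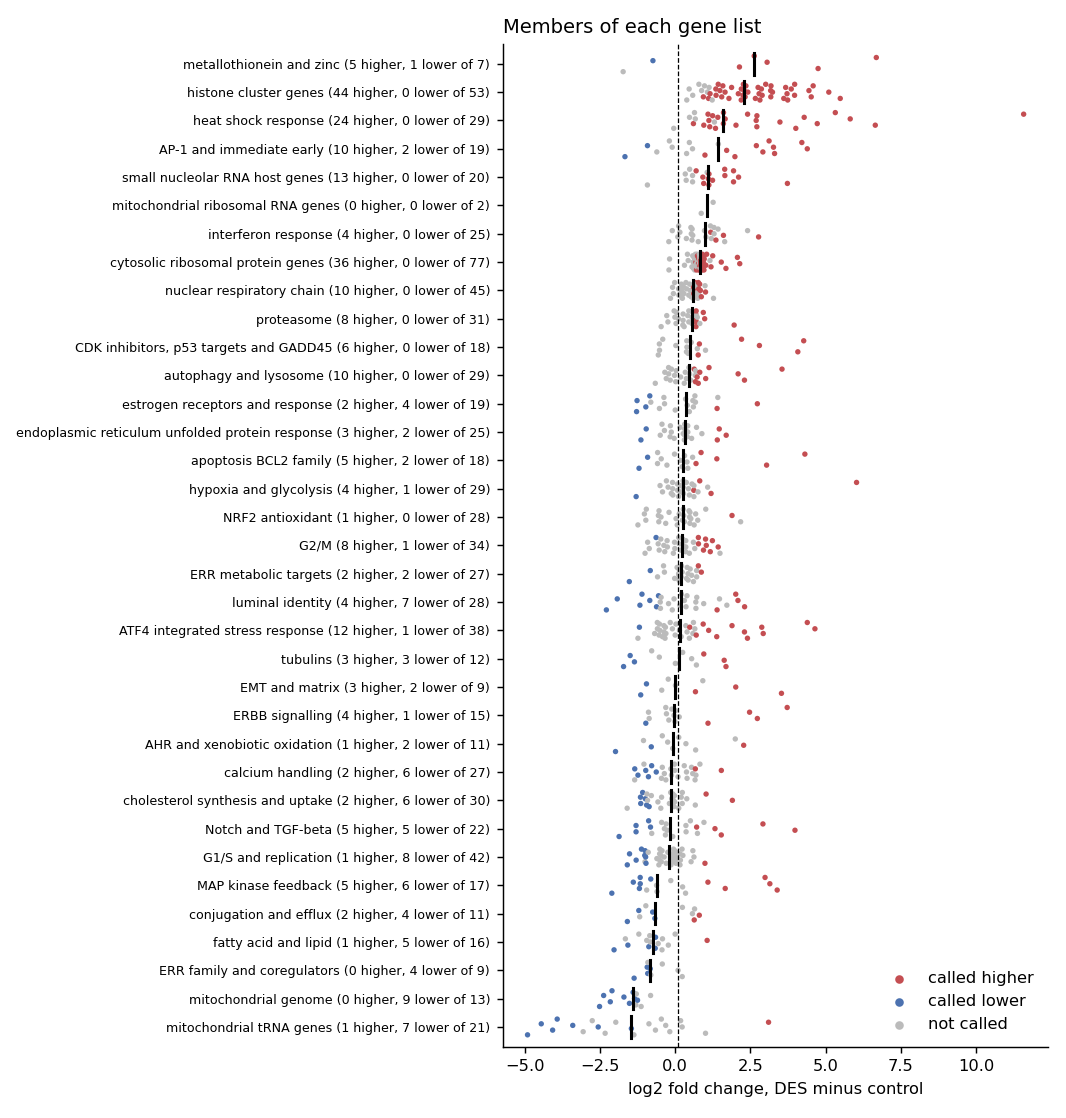
Each point is a gene, placed on the x axis by its log2 fold change, DES minus control, in the row of its list, with called genes in red (higher) or blue (lower) and others in grey. Short black lines are list medians and the dashed line is the median of all genes tested (0.08). The heat shock, histone and metallothionein lists lie to the right and the mitochondrial genome and tRNA lists to the left.

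Messenger RNAs of the mitochondrial genome, which encode core subunits of the respiratory chain, were lower with DES. Of the 13 mitochondrial mRNAs 9 were lower and 0 higher, with a median of -1.40, and 5 were lower without control replicate 1, control replicate 2 or DES replicate 2. MT-CO2, a subunit of cytochrome c oxidase, went from 10456, 10206 and 9313 FPKM to 2794, 1621 and 1176 FPKM (log2 fold change -2.51, SE 0.40, adjusted p = 0.00495). MT-ND1 went from 2854, 2848 and 2687 FPKM to 674, 516 and 708 FPKM (fell by 2.16). MT-ND6, the mRNA encoded on the light strand, fell by 2.10. The 4 without a call were MT-ND2, MT-ND3, MT-ATP6 and MT-ATP8, at -0.82 to -1.31. All mitochondrial mRNAs together were 6.49% to 7.14% of fragments in control and 1.78% to 2.51% with DES, groups that did not overlap (6.83% ± 0.326 against 2.11% ± 0.371, SD, n = 3, two-sided exact permutation test p = 0.1, the smallest that 3 against 3 allows). The mitochondrial ribosomal RNAs, which are made from the same heavy strand, lay the other way, at 0.795% to 1.39% against 1.69% to 2.45% of fragments. MT-RNR2 was at 4626, 3227 and 7217 FPKM in control and 14332, 9188 and 11217 FPKM with DES (1.26, adjusted p = 0.0672), and MT-RNR1 had a log2 fold change of 0.86 (adjusted p = 0.103), so neither was called, while quantile normalization called both and equal totals 1 of them higher. Of 21 tested mitochondrial tRNA genes, which are 59 to 75 bases long, 7 were lower and 1 higher (MT-TW, called without control replicate 2 but not when any other library was left out). MT-TW averaged 0.232 FPKM in control and 1.80 FPKM with DES, which at this length stands for few fragments. The lower tRNA genes were 4 without control replicate 1 and 3 without control replicate 2 or control replicate 3. MT-TC, on the light strand, went from 2123, 1986 and 2093 FPKM to 147, 146 and 344 FPKM. MT-TN, its neighbour on that strand, went from 1054, 905 and 2452 FPKM to 41.2, 56.3 and 289 FPKM. The tRNA genes are shorter than the sequenced reads, so these values may not measure mature tRNA. RNA was captured on oligo-dT, so only part of the mitochondrial ribosomal and transfer RNAs may be seen.

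**Figure D4:**
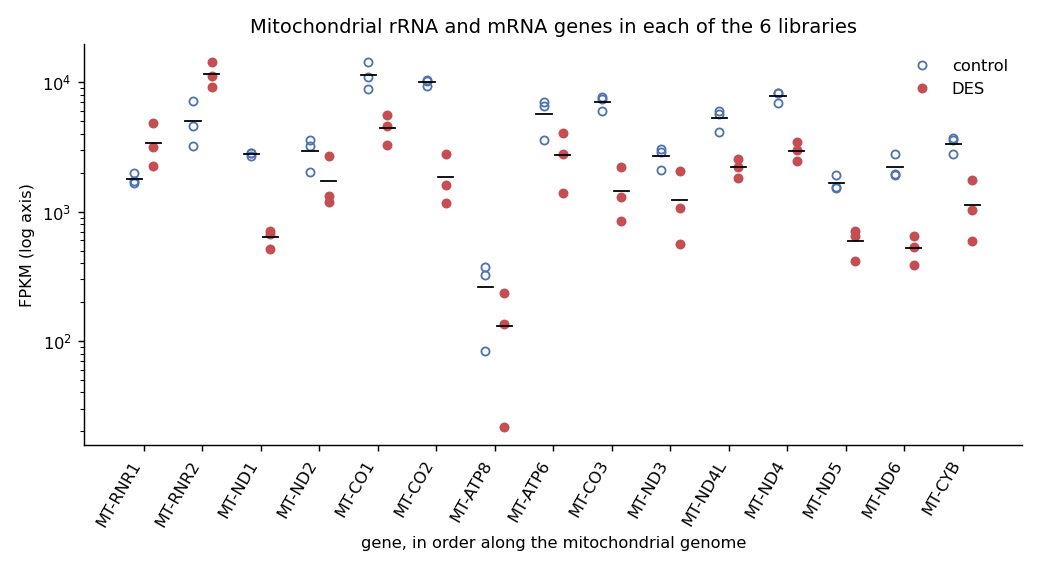
FPKM on a log axis for the 2 ribosomal RNAs and 13 mRNAs of the mitochondrial genome, in their order along it, in each control (open blue) and DES (filled red) library, with black lines at group means. The ribosomal RNAs lie higher with DES and the mRNA means lower, with MT-CO2, MT-ND1 and MT-ND6 well apart and MT-ND2, MT-ATP6 and MT-ATP8 overlapping.

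Of 45 nuclear genes for subunits of the respiratory chain 10 were higher and 0 lower (median 0.59), among them NDUFS3 (1.01), COX8A (0.87) and UQCRB (0.81). COX8A was not called without any single control library or DES replicate 2, nor UQCRB without control replicate 1 or control replicate 2. This count was 24 without DES replicate 3, but 1 without either control replicate 1 or control replicate 2, 2 without DES replicate 2, 3 without control replicate 3 and 3 under quantile normalization with a median of 0.18. Cytosolic ribosomal protein genes, a list added after the values were seen, had 36 of 77 higher and 0 lower (median 0.81), with the same dependence: 60 without DES replicate 3, 8 without DES replicate 2, 5 without either control replicate 1 or control replicate 2 and 9 without control replicate 3, and 1 was lower without DES replicate 1. Under quantile normalization they gave 19 higher and 1 lower, and under median-ratio scaling 23 higher.

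Histone cluster genes, also added after the values were seen, had 44 of 53 measured members higher and 0 lower, with a median of 2.29. The linker histone gene HIST1H1D was at 1.35, 0.782 and 1.91 FPKM in control and 51.0, 78.9 and 56.5 FPKM with DES (5.48, SE 0.32, adjusted p = 0.000144). HIST1H1E rose by 5.10, and HIST1H3H, the most abundant of the strong risers, from 15.6, 8.61 and 13.99 FPKM to 298, 345 and 192 FPKM (4.44). Most histone mRNAs made in S phase end without a poly(A) tail, and these libraries were made from RNA captured on oligo-dT, so only part of them is seen. The count was 36 to 42 when single libraries were left out. Host genes of small nucleolar RNAs, a further list added after the values were seen, had 13 of 20 higher and 0 lower (median 1.08). SNHG1 went from 15.4, 16.6 and 8.46 FPKM to 119, 198 and 218 FPKM and GAS5 from 38.1, 30.7 and 33.4 FPKM to 129, 152 and 160 FPKM.

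Gene length moved with these group results. Among 10896 tested protein-coding genes, the shortest 2724 (207 to 3232 bases of exon) had a median log2 fold change of 0.39, with 27.1% higher and 6.98% lower. The next 2726 and 2724 genes by length had medians of 0.08 and -0.09, and the longest 2722 (7426 to 44677 bases) had -0.31, with 5.66% higher and 20.9% lower. The histone genes had a median length of 642 bases and the nuclear respiratory genes 2838 bases, whereas the coregulators of the ERR family had 8633 bases and the fatty acid genes 7601 bases. The mitochondrial mRNAs, with 784 bases, were short and lower. The part of length in any of the list results was not tested.

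Of 42 genes of G1/S and DNA replication 8 were lower and 1 higher (median -0.20), with the flap endonuclease FEN1 going from 32.0, 46.4 and 25.7 FPKM to 11.8, 9.22 and 12.6 FPKM (fell by 1.59) and E2F2 and CDC25A falling by 1.52 and 1.30. The higher gene was SLBP, which binds the stem-loop of histone mRNAs (0.99, adjusted p = 0.00564). The count of lower genes was 3 without control replicate 1, 2 without control replicate 2 and 2 without DES replicate 2, and with all 7 groups in one fit it was 1. E2F2 lost its call without control replicate 2 or DES replicate 2, and E2F2 and CDC25A lost theirs in the fit of 7 groups. Without DES replicate 3 the higher genes were 2. Of 34 G2/M genes 8 were higher and 1 lower (median 0.22), among them PTTG1 (1.43), CKS2 (1.23) and UBE2C (1.16), and the count of higher genes was 4 without control replicate 1, 5 without control replicate 3 or DES replicate 2 and 2 in the fit of 7 groups, where PTTG1 and UBE2C lost their calls. The lower gene was lost without any single control library or DES replicate 2. Under quantile normalization 5 were higher. Tubulin genes had 3 of 12 higher and 3 lower (median 0.13), with TUBB2A rising by 1.63 and the main isotypes TUBB (fell by 1.36) and TUBA1C lower. Under quantile normalization 5 were lower, with a median of -0.04, and with equal totals the median was -0.05.

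Lipid genes were lower in part. Of 16 fatty acid genes 5 were lower and 1 higher (median -0.75): the elongase ELOVL6 fell by 2.03, PPARA by 1.57 and acetyl-CoA carboxylase ACACA by 0.88, and the triglyceride lipase PNPLA2 rose by 1.06, a call lost under quantile normalization. The lower genes were 2 without control replicate 1 or control replicate 3, 3 without control replicate 2 or DES replicate 2 and 9 without DES replicate 3, and PPARA lost its call without any single control library. Quantile normalization gave 10 lower and 0 higher. Of 30 cholesterol genes 6 were lower and 2 higher (median -0.13), with TM7SF2 lower and MYLIP, which degrades the LDL receptor, higher (1.90). The lower genes were 3 without control replicate 1 or control replicate 3, where TM7SF2 lost its call in the second case, and 11 without DES replicate 3, and under quantile normalization they were 10, with 1 higher. Among 11 genes of the aryl hydrocarbon receptor and xenobiotic oxidation 1 was higher, TIPARP (2.27), and 2 lower, CYP1B1 and RXRA (median -0.08). RXRA was called without DES replicate 2 but not when any other library was left out, and the higher genes were 2 without control replicate 3 or DES replicate 3. CYP1B1, an enzyme that hydroxylates estrogens, went from 59.5, 58.3 and 107 FPKM to 19.0, 27.1 and 11.5 FPKM (fell by 1.98). Of 11 conjugation and efflux genes 2 were higher and 4 lower (median -0.68), the largest fall being steroid sulfatase STS (fell by 1.59). Without control replicate 1 or DES replicate 2 this list had 0 higher and 1 lower, without control replicate 2 it had 0 and 2, without control replicate 3 it had 1 and 2, and without DES replicate 1 or DES replicate 3 it had 1 higher, as it had under each other scaling and when both groups had to pass the filter (median then -0.22).

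Of 27 calcium handling genes 2 were higher and 6 lower (median -0.13), the lower ones including the pumps ATP2A3, ATP2B4 and ATP2A2 and the channels ORAI1 and ORAI3. The lower genes were 2 without control replicate 1 or control replicate 3, 1 without control replicate 2 and 3 without DES replicate 2, and the higher ones 0 without control replicate 1 or control replicate 2 and 1 without control replicate 3, DES replicate 1 or DES replicate 2. Under quantile normalization 0 were higher. ATP2A2 kept its call without each library. ATP2B4 lost it without control replicate 1 or control replicate 2, ORAI3 without any single control library or DES replicate 2, ORAI1 without any library but DES replicate 1, and ATP2A3 without any but control replicate 1 and DES replicate 3. Of 22 Notch and TGF-beta genes 5 were higher and 5 lower (median -0.17), with 2 lower without control replicate 1 and 8 higher without DES replicate 1, and 8 lower with equal totals. The Notch ligand DLL4 went from 0.494, 0.418 and 0.737 FPKM to 7.51, 9.57 and 13.6 FPKM (3.98), while the receptor NOTCH3 fell from 35.4, 38.1 and 41.3 FPKM to 8.49, 9.30 and 14.3 FPKM (fell by 1.87). Of 15 genes of ERBB signalling 4 were higher and 1 lower (median -0.04): the ligands AREG and HBEGF, the adaptors IRS2 and GRB7, and IGF1R on the lower side. Without control replicate 1 or control replicate 2 the list had 2 higher and 0 lower, without control replicate 3 it had 3 and 2, without DES replicate 2 it had 3 and 0, and without DES replicate 3 it had 2 and 1. Quantile normalization gave 3 higher and 4 lower, equal totals 3 and 3, and the filter in both groups 2 and 1. HBEGF lost its call without control replicate 1 or control replicate 2, GRB7 without any single control library or DES replicate 2, and IGF1R without any library but DES replicate 3.

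The 15 largest called rises, by the rule, held 8 protein-coding genes, HSPA6, RNF103-CHMP3, MT1E, RGS2, OMP, ADM, CRYAB and HES7, beside 5 long noncoding genes and 2 pseudogenes. RNF103-CHMP3, at 17.3 to 28.1 FPKM with DES, is a readthrough model that shares exons with RNF103 and CHMP3, and OMP lies within CAPN5 on the same strand, so reads of these cannot be assigned with certainty. AC104695.3, inside FOSL2, had 0 fragments in every control library and was at least 39.1-fold higher with DES, against 3 fragments over the control group. HES7, a Notch-type repressor of the segmentation clock, went from 0.348, 0.963 and 0.551 FPKM to 23.4, 31.5 and 58.2 FPKM. The 15 largest called falls by the same rule (genes of at least 200 bases with a mean of at least 1 FPKM) were all noncoding, unclassified or pseudogenes, from -5.15 (AC084018.1) to -3.50 (AP000553.2, not called without any single control library or DES replicate 2). AC004975.1, a processed pseudogene, had 0 fragments in every DES library and was at least 10.6-fold lower.

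Noncoding genes were called higher in a larger share than coding ones, while their share of fragments overlapped between the groups: long noncoding genes took 0.907% to 1.07% of fragments in control and 0.941% to 1.64% with DES (1.01% ± 0.0913 against 1.33% ± 0.357, SD, n = 3, two-sided exact permutation test p = 0.3), and DES replicate 3 was the highest. Of 1989 long noncoding or unclassified genes 26.8% were higher and 10.9% lower, and of 1128 pseudogenes 23.8% and 8.33%, against 15% and 14% of protein-coding genes. Most of the noncoding genes lie across coding genes: 1049 overlapped one on the opposite strand (26.3% higher, 8.1% lower) and 374 on the same strand (30.5% higher, 15.2% lower). The sources used here describe the strand of counting in more than 1 way, so signal of such a gene and of its partner cannot be told apart with certainty. The 104 that began within 10 kb downstream of a coding gene on its strand went the other way, with 13.5% higher, 24% lower and a median of -0.42, against 0.39 over all long noncoding genes. These positions were examined after the values were seen.

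Libraries outside the comparison gave a second reading of the DES effect. In cells given calcium, DES made 2801 genes higher and 2489 lower, 19.2% and 17% of 14608 tested, and in cells given cadmium 810 higher and 885 lower, 5.53% and 6.04% of 14660 tested. DES had been present 3 h longer in these cells. Of the 2643 genes higher with DES alone, 2389 were tested with calcium, where 87.7% had the same sign (50.5% of all genes did) and 1294 were called in the same direction. With cadmium 2279 were tested, 80.3% had the same sign and 414 were called. Of the 1909 lower genes, 95% of 1864 kept their sign with calcium (1117 called) and 89.7% of 1872 with cadmium (451 called). The 1294 genes were 46.2% of those higher with calcium, and the 1117 were 44.9% of those lower. Single libraries carried the cadmium count. Leaving out the first or the second cadmium library left 0 genes in limma, where 4215 and 3009 genes had an unadjusted p under 0.05.

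**Figure D5:**
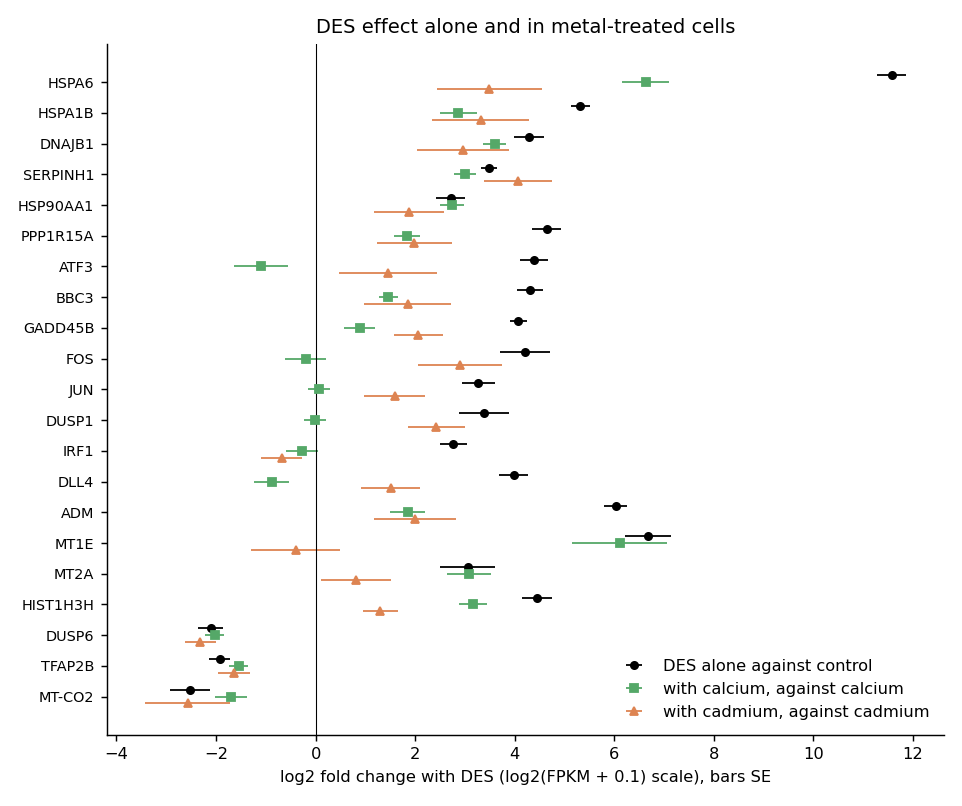
Log2 fold change with DES for 21 genes, in cells without metal (black circles), with calcium (green squares) and with cadmium (orange triangles), with bars of 1 SE. HSPA6 falls from 11.57 alone to 6.63 with calcium and 3.49 with cadmium, ATF3, FOS, JUN and DUSP1 are near or below 0 with calcium, and DUSP6 and TFAP2B stay lower in all 3.

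The genes differed in how they behaved beside the metals. HSPA6 averaged 0.212 ± 0.073 FPKM in control and 966 ± 310 FPKM in DES libraries (SD, n = 3). Calcium cells had 9.12 ± 6.22 FPKM, and 836 ± 309 FPKM with DES given first. Cadmium cells had 430 ± 466 FPKM, and 2801 ± 1316 FPKM with DES given first, while GSK4716 cells stayed at 0.179 ± 0.229 FPKM. The rise on the log2 scale was smaller by 4.94 beside calcium (adjusted p of the difference 0.0037) and by 8.09 beside cadmium (0.0175), where the change of 3.49 was not itself called (adjusted p = 0.0683). ATF3 averaged 1.91 ± 0.693 FPKM in control and 41.1 ± 9.31 FPKM in DES libraries, but 115 ± 104 FPKM in calcium cells and 42.6 ± 12.7 FPKM with DES given first. MT1E reached 540 ± 175 FPKM in cadmium cells and 658 ± 693 FPKM with DES given first, far above the 14.3 ± 7.53 FPKM of DES alone.

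The difference between settings was itself tested for every gene. Beside calcium 552 of 14775 genes differed in their DES effect from DES alone, and 198 of these were genes called higher alone, of which 176 had a lower value beside calcium, below 0 in some, such as ATF3 (-1.10) and AREG (-2.84). Of the 44 called lower alone, 31 had a smaller fall or a rise there. Beside cadmium 171 of 14793 differed, with 105 called higher alone, of which 104 had a lower value beside cadmium, and 15 called lower alone, of which 13 had a smaller fall or a rise. Beside calcium the log2 fold changes of JUN, FOS and DUSP1 were 0.07, -0.20 and -0.02, lower than alone by 3.20, 4.41 and 3.40. For DNAJB1 the difference was -0.69 (adjusted p = 0.364), and for DUSP6 it was 0.08. Both metal-free groups enter each of these differences, so they are not independent of the DES versus control result.

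The study had named genes that moved together with calcium, cadmium and GSK4716. Those contrasts share the control libraries with DES versus control, so a count over them is not independent evidence. The higher list as used here held 39 genes, which is not the whole of it. Of its 27 measured genes 14 were higher with DES and 0 lower (median 1.42, and 10 of 21 with a median of 0.79 when both groups had to pass the filter; 1 lower without control replicate 2), among them ADM, PPP1R15A, ATF3, DLL4, DUSP10 and DUSP8. Of the 36 measured genes of the lower list, used here with 37 genes, 7 were lower and 0 higher (median -0.51), among them FEN1, PCNA and ZNF367. This count was 2 without control replicate 1, control replicate 2 or DES replicate 2, and PCNA lost its call there and without DES replicate 3.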

How the data were processed

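RNA of MDA-MB-453 cells was captured on oligo-dT beads and sequenced as paired-end reads. Per the labels, the authors aligned with HISAT2 2.0.5 and counted with featureCounts 1.5.0-p3 on GRCh38.p14, and the deposited FPKM values are the authors' normalization by gene length and library. The labels allow for a directional or a non-directional kit, so the strand of counting is not settled. No column of per-sample values lacked a sample.

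FPKM times gene length gave whole fragments within 0.1, which supplied depth (15246217 to 28424805 fragments) and a floor of 3 fragments for bounds. log2(FPKM + 0.1) of genes with a mean of at least 0.5 FPKM was tested with limma 3.58.1 (trend, two-sided, Benjamini-Hochberg over all genes tested, threshold 0.05), a procedure checked on simulated data. Replicate numbers were not used to pair libraries. Genes were named by a rule: the 15 largest called rises and falls (at least 200 bases, a mean of at least 1 FPKM, groups that do not overlap), up to 4 called members per direction and the 2 most abundant members of each list, the quantitative PCR genes and the markers. Some genes and 1 list that the rule covers are not reported here. Other named genes were chosen after their values were seen. The comparison and the lists were chosen with earlier results of these data known. Promoters came from RefSeq.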

Additional observations from a re-analysis of the deposited data

Results flagged for a closer look

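For 33 named genes the log2 change with DES differed beside calcium from that without metal, and for 4 beside cadmium, by limma's interaction test at an adjusted p of 0.05. Values are the change beside the metal minus the change without it. Both changes rest on 3 libraries a group, and DES was present longer beside the metals.

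Among heat shock genes the difference beside calcium was -4.94 for HSPA6, -2.45 for HSPA1B, -2.06 for HSPA1A and -3.17 for HSPB1. In the stress response and cell death lists it was -5.48 for ATF3, -2.80 for PPP1R15A and -2.85 for BBC3. Among early response genes it was -4.41 for FOS, -3.20 for JUN, -2.28 for KLF4 and -1.95 for IER3. The stress kinase phosphatases gave -3.40 for DUSP1, -2.09 for DUSP10 and -2.22 for DUSP8. GADD45B gave -3.19 and GADD45A -1.32.

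Other genes with a lower value beside calcium were AREG (-5.56), DLL4 (-4.86), HES7 (-2.35), ADM (-4.18), IRF1 (-3.05), IRF7 (-2.15), CDH1 (-1.55), TUBB2A (-2.91) and PNPLA2 (-1.30). The autophagy genes GABARAPL1 and ATG9B gave -2.90 and -2.94. RNF103-CHMP3 gave -2.24 and AC104695.3 gave -5.73.

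The difference was positive for E2F2 (2.53), FEN1 (2.04), PCNA (1.98) and STS (1.69), which were lower with DES alone, as IER3 with its negative difference also was. Beside cadmium it was -8.09 for HSPA6, -7.08 for MT1E, -3.45 for IRF1 and -3.14 for HIST1H3H.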

How the results depend on the processing

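Of 4552 genes called for DES versus control, 2871 passed with a change of at least 1 on the log2 scale, arrayWeights gave 10538, and leaving out single libraries gave 2183 to 5417. Beside calcium no alternative moved the count of 5290 by over 1.5 times, and leave-one-out values ran from 3664 to 4650. Beside cadmium the count of 1695 became 22 with no filter, 1102 with the filter in both groups (chosen after seeing the data), 5637 with all 7 groups in one fit, 8467 with arrayWeights and 0 to 1501 when single libraries were left out. With the replicate number as a block the counts were 3450, 5661 and 757. Deviations of same-numbered libraries from their group means correlated at -0.02, 0.01 and -0.08 in DES versus control. The values were 0.10, 0.05 and 0.14 beside calcium and 0.26, -0.16 and -0.15 beside cadmium. Whether same-numbered libraries shared a culture or batch was not tested.

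Of 152 named genes that were called, 96 kept the call under every setting in which they were tested, the fold minimum aside, and 0 reversed. Between 10 and 44 lost it when 1 library was left out. The cause was not tested. Depth limits the size given for low genes: 362 genes called higher had 3 or fewer fragments in every control library and 84 called lower in every DES library.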
